A study of Mus musculus with 4 samples.

Results

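The Hox genes of the 4 mouse clusters were followed through early gonad development. The members were the features whose symbol is Hoxa, Hoxb, Hoxc or Hoxd followed by a paralog number, and all 39 such genes were taken, of 40999 listed features. RNA came from gonads of wild-type C57BL/6J embryos at 4 ages from E11.5 to E14.5, in days of embryonic development (E). Each time point was a single library made from pooled XX and XY gonads, so that male and female values cannot be separated. The E11.5 pool was the whole genital ridge with its mesonephros, the transient kidney that lies along the gonad, whereas the later gonads had been separated from it. The change from E11.5 to E12.5 is therefore a change of age and of dissection together, and the effects of the 2 cannot be told apart.

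Hox genes encode homeodomain transcription factors that give cells their position along the head to tail axis. They lie in clusters in which the order of the genes follows the order of their domains along the body, with group 1 most anterior and group 13 most posterior, and genes of the same number in different clusters are paralogs derived from one ancestral gene. In the trunk they pattern the intermediate mesoderm, from which both the gonad and the mesonephros arise. Many bind DNA together with TALE homeodomain cofactors of the Pbx and Meis families, and Polycomb group proteins keep silent Hox genes off.

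In mm10 the files placed the 11 Hoxa genes on chromosome 6, all on the minus strand. The 10 Hoxb genes lay on chromosome 11 between 96194361 and 96368254. The 9 Hoxc genes lay on chromosome 15 between 102921108 and 103036852, and the 9 Hoxd genes on chromosome 2 between 74668310 and 74765142.

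The libraries held between 25593453 and 31752562 counts, of which the Hox genes took 34048, 12030, 14223 and 7998 from E11.5 to E14.5. The E14.5 library stood apart, since 40.7% of its counts fell on 1 ribosomal RNA gene, against 1.03% to 9.06% in the others. Libraries were compared after TMM scaling, which sets the bulk of genes equal, and levels are given as TMM-scaled RPKM, that is counts per kilobase of exon relative to the scaled library size. A gene was measured in a comparison with at least 10 counts in either library, and called up- or down-regulated at a 2-fold difference or more. With 1 library per time point no difference between time points could be tested. The 95% intervals (exact, Clopper-Pearson) cover counting error only, and they say nothing of how pools of the same age would vary. In these bulk RNAs, fewer cells of a type and less RNA per cell cannot be told apart.

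In the genital ridge at E11.5 all 4 clusters were expressed at similar summed levels. The summed TMM-scaled RPKM was 90.9 for Hoxa, 70.4 for Hoxb, 95.2 for Hoxc and 92.2 for Hoxd. Of the 39 genes, 37 had at least 10 counts and at least 1 TPM (the deposited length-normalised unit), and the exceptions were Hoxb13 with 1 count and Hoxc13 with 2 counts. Hoxc10, a gene of the lumbar level, had the highest level at 24.6. It was followed by Hoxa5 at 19.9, Hoxd4 at 18.7, Hoxd9 at 18.1, Hoxb6 at 17.8, Hoxd8 and Hoxc8 both at 17.0, and Hoxa6 at 16.9. The interval of Hoxc10, 23.4 to 25.8, was apart from that of Hoxa5, which began at 18.8, while from Hoxa5 down to Hoxa6 each gene overlapped the next.

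**Figure D1:**
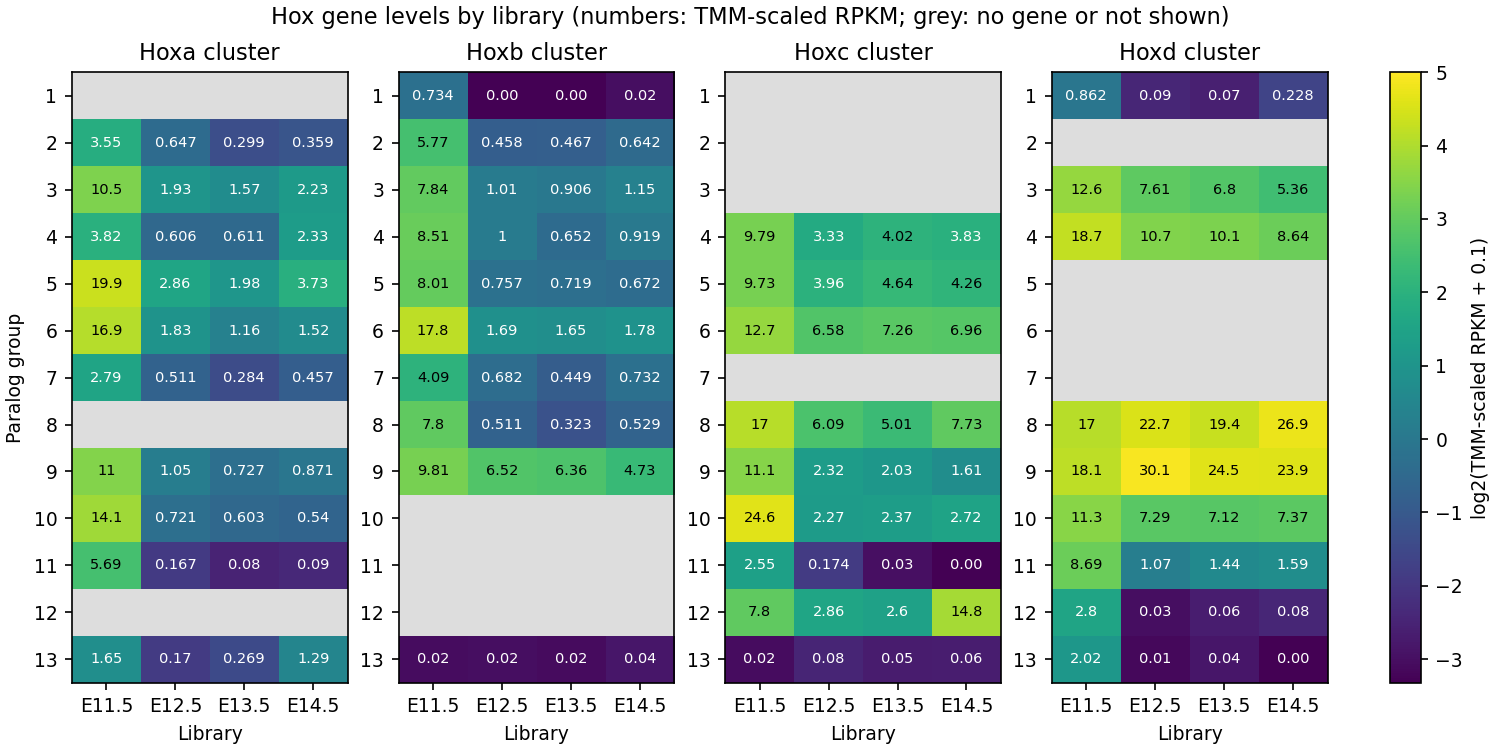
TMM-scaled RPKM of the Hox genes in the 4 libraries (grey cells hold no gene or are not shown), with 1 panel per cluster, paralog groups in rows, libraries in columns and the colour on a log2 scale after adding 0.1. Hoxd9 was at 30.1 and Hoxd8 at 22.7 at E12.5, while most Hoxa and Hoxb genes were darker from E12.5 on than at E11.5.

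Between E11.5 and E12.5 most Hox genes were down-regulated. Of 37 measured genes 30 were called lower and 0 higher, and their median log2 ratio was -2.80, with a range from -7.30 to 0.73. Over all 19500 measured genes 9.72% were called lower, 9.03% were called higher, and the median log2 ratio was -0.01. The summed Hox level at E12.5 was 37.5% of that at E11.5. The clusters differed in this step. All 11 Hoxa genes were called lower and the cluster kept 11.8% of its summed level. Of the Hoxb genes 8 of 9 were called lower and 18.0% was kept, of the Hoxc genes 7 of 8 and 29.1%. Only 4 of 9 Hoxd genes were called lower, and that cluster kept 86.4%.

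Because the mesonephros was present at E11.5 alone, markers of the other cells a genital ridge can hold were read beside the Hox genes. Of 15 mesonephric and nephrogenic markers 11 were called lower at E12.5 and 1 higher, with a median log2 ratio of -2.82, and their summed level went from 87.5 to 25.8. Pax2, a transcription factor of the nephric duct, had 1531, 60, 73 and 36 counts in the order of age. Six2, which marks nephron progenitors, had 1004, 10, 17 and 6 counts. Lhx1 did not follow them, with a log2 ratio of 0.64, and Gdnf rose by 1.47. Among markers of other tissues, 4 of 5 of neurons and neural crest, 4 of 6 of gut and 2 of 3 of muscle and somite were also called lower. Myod1 and Myog, which define skeletal muscle, never had more than 11 counts. In the opposite direction, 6 of 10 markers of gonadal somatic cells were called higher and 0 lower, among them Amh, the hormone of Sertoli cells, at 7.76, and Nr5a1, the steroidogenic regulator that defines the early gonad, at 1.34. Of the 6 germ cell markers 5 were called higher, with Dazl at 6.55. How much of the Hox difference went with this change of tissue was not tested.

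**Figure D2:**
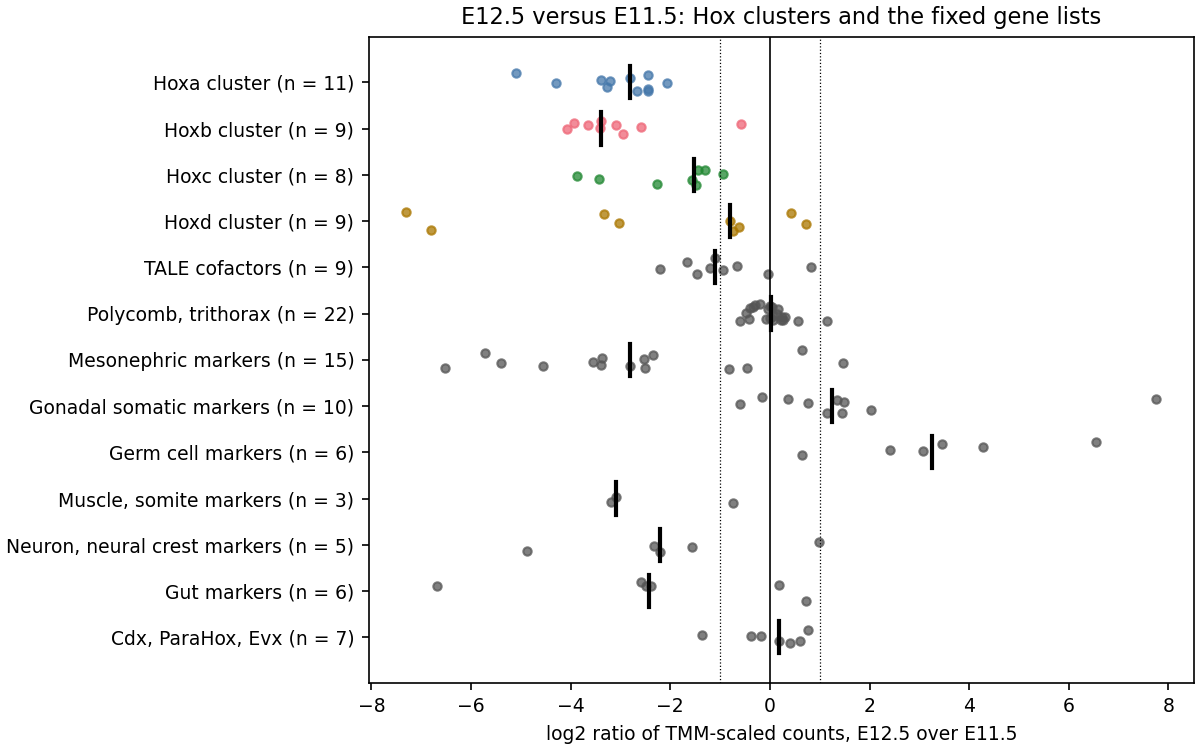
Each point is 1 gene's log2 ratio of TMM-scaled counts, E12.5 over E11.5, for the measured genes of each Hox cluster and of each gene list; black bars are medians and dotted lines mark 2-fold. The medians were -2.80 for Hoxa and -3.40 for Hoxb, beside -2.82 for the mesonephric markers and 1.25 for the gonadal somatic markers.

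The Hoxd cluster held both the highest and the most reduced genes. Hoxd9, a gene of the posterior trunk, had 1302, 1980, 2035 and 945 counts in the order of age, or TMM-scaled RPKM of 18.1, 30.1, 24.5 and 23.9. On this scale all 3 gonad libraries lay above the genital ridge, whereas in deposited TPM E14.5 was below it, at 16.0 against 27.9. Its log2 ratio at E12.5 was 0.73 (0.63 to 0.84), which is 1.66-fold and short of the 2-fold call. As a ratio of deposited TPM it was 1.02, past that call, with the median of all genes at 0.28. Hoxd8, its neighbour on the anterior side, had 1476, 1801, 1947 and 1284 counts, or levels of 17.0, 22.7, 19.4 and 26.9. In deposited TPM its values were 26.3, 42.7, 40.0 and 18.1, so that E14.5 was highest on the TMM scale and lowest in TPM. Its log2 ratio at E12.5 was 0.42 (0.32 to 0.52). Hoxd8 and Hoxd9 were the only 2 of 37 measured Hox genes with a ratio above 0 at E12.5. Part of the Hoxd8 exons, 501 bases or 19.8%, is overlapped on the opposite strand by LOC102634284, which had 148, 82, 94 and 38 counts and a log2 ratio of -0.72 at E12.5.

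Among the other Hoxd genes, Hoxd3, Hoxd4 and Hoxd10 were read at more than 50% of their E11.5 level. Hoxd4 kept 57.3% (52.7% to 62.2%), with levels of 18.7, 10.7, 10.1 and 8.64. Hoxd3 kept 60.3%, with levels of 12.6, 7.61, 6.80 and 5.36, and Hoxd10 kept 64.6%, with levels of 11.3, 7.29, 7.12 and 7.37. Together Hoxd3, Hoxd4, Hoxd8, Hoxd9 and Hoxd10 form an unbroken run of 5 genes, and the genes on both sides of it were called lower.

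On the posterior side of that run the ratios dropped steeply. Hoxd11 had 1254, 141, 240 and 126 counts and a log2 ratio of -3.02 (-3.29 to -2.77). Hoxd12 had 243, 2, 6 and 4 counts, and its ratio of -6.80 rests on 2 counts and has an interval from -9.85 to -4.93. Hoxd13, the last gene of the cluster and a patterning gene of digits and the genital tubercle, had 172, 1, 4 and 0 counts, with a ratio of -7.30 (-12.61 to -4.80) that rests on 1 count. A count of 0 in a library allows up to 3 counts. On the anterior side Hoxd1 had 55, 5, 5 and 8 counts and a ratio of -3.33. Hoxd13 and Hoxd12 had the lowest ratios of all measured Hox genes, and they lie in the same cluster as Hoxd9, which had the highest.

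The promoters of these 4 Hoxd genes are shown because they lie in the same cluster and had the most distant ratios. Each window holds 250 bases before and 50 after the start of transcription, from RefSeq on GRCm38.p6 (mm10), plus strand. The counted exons of Hoxd9 and Hoxd12 begin inside their windows. Those of Hoxd8 and Hoxd13 begin at 74705010 and 74668310, past the ends of their windows, which therefore hold none of the counted bases. Capitals mark TATAAA or CCAAT, the letters of a TATA box and a CCAAT box, searched on both strands.
Hoxd9, chr2:74697513-74697812: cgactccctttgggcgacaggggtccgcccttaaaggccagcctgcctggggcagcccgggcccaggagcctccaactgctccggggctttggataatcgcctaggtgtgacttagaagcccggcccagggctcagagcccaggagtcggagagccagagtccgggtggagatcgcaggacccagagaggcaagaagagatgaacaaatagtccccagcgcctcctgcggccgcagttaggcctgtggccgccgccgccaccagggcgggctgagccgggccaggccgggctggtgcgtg
Hoxd8, chr2:74704365-74704664: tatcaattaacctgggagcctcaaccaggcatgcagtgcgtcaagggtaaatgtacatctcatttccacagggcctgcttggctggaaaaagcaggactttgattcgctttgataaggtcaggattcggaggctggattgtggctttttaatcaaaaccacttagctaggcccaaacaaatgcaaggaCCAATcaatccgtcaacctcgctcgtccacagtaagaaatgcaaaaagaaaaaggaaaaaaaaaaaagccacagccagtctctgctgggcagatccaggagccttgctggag
Hoxd12, chr2:74674763-74675062: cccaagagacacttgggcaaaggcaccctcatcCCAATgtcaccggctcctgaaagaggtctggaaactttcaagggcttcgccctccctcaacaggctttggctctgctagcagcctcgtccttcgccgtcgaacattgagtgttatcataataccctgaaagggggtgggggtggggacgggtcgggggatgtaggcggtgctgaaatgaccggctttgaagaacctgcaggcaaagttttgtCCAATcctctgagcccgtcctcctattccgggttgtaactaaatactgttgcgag
Hoxd13, chr2:74667975-74668274: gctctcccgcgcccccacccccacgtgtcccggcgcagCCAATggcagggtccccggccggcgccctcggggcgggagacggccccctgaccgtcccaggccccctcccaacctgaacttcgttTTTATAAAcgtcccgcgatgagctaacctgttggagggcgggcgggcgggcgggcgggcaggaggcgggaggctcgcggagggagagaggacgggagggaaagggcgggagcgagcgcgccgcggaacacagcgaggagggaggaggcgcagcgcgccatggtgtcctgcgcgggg
Neither motif was in the Hoxd9 window. CCAAT was found 1 time in the Hoxd8 window, 2 times in the Hoxd12 window and 1 time in the Hoxd13 window, and only the Hoxd13 window held TATAAA, as 2 matches that overlap each other on opposite strands. No TATAAA overlapped a CCAAT in these windows. Across the 24 promoters available for 22 of the 39 Hox genes, CCAAT was in 15, or 62.5%, against 37.4% of 32851 promoters of all genes. TATAAA was in 4, or 16.7%, against 13.6%. The Hoxd13 window held 37 CG dinucleotides, Hoxd9 20, Hoxd12 13 and Hoxd8 6, against a median of 7 per window over all promoters. These matches describe the letters alone.

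The Hoxc genes lost less than the Hoxa and Hoxb genes, and least in the anterior part of the cluster. Hoxc6, a thoracic gene, had the most counts of any Hox gene at 4582, 2178, 3037 and 1384, with levels of 12.7, 6.58, 7.26 and 6.96. It kept 52.0% (49.3% to 54.7%) at E12.5. Hoxc5 kept 40.7%, Hoxc8 35.9% and Hoxc4 34.1%. Hoxc8 had 1378, 452, 470 and 345 counts, with levels of 17.0, 6.09, 5.01 and 7.73. Posterior to these genes the values were lower: Hoxc9 kept 20.9%, Hoxc10 9.22% and Hoxc11 6.83%. Hoxc10 went from the highest level of any Hox gene to a low one, with 1612, 136, 180 and 98 counts and levels of 24.6, 2.27, 2.37 and 2.72. Hoxc11 had 80, 5, 1 and 0 counts. Hoxc12 broke the order, keeping 36.7% (32.2% to 41.8%). Of the 3423 exon bases counted for Hoxc12, 2392 lie outside its model in the GENCODE M21 annotation, and where its reads lie was not tested. Hoxc13 had 2, 7, 6 and 3 counts and was not measured.

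Among the Hoxb genes Hoxb9 stood by itself. It had 908, 552, 680 and 241 counts, with levels of 9.81, 6.52, 6.36 and 4.73, and kept 66.4% (59.7% to 73.9%) at E12.5. Its neighbour Hoxb8, whose counted exons begin 4.17 kb away, had 751, 45, 36 and 28 counts and kept 6.55% (4.74% to 8.85%). The other measured Hoxb genes kept between 7.94% for Hoxb2 and 16.7% for Hoxb7. The exception was Hoxb1, with 55, 0, 0 and 1 counts, which was at least 16.8-fold lower at E12.5, taking 0 counts at a floor of 3. Hoxb13 had 1 count in each library and gives no fold. Hoxb6 fell from a level of 17.8 to 1.69, the largest drop in level in this cluster.

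In the Hoxa cluster the genes from Hoxa2 to Hoxa7 kept between 10.8% and 18.5% of their E11.5 level. Hoxa5, which was the second highest Hox gene at E11.5, had 1280, 168, 147 and 132 counts and levels of 19.9, 2.86, 1.98 and 3.73. Further back Hoxa9 kept 9.54%, Hoxa10 5.11% and Hoxa11 2.94%. Hoxa10, a gene later needed in the female reproductive tract, had 1519, 71, 75 and 32 counts and a log2 ratio of -4.29 (-4.66 to -3.95). Hoxa11, which acts with its paralogs in kidney formation, had 446, 12, 7 and 4 counts and a ratio of -5.09 (-6.05 to -4.27). The antisense RNA Hoxa11os shares 568 bases with its exons on the opposite strand. Hoxa13 kept 10.3%, with an interval from 4.02% to 22.4%.

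**Figure D3:**
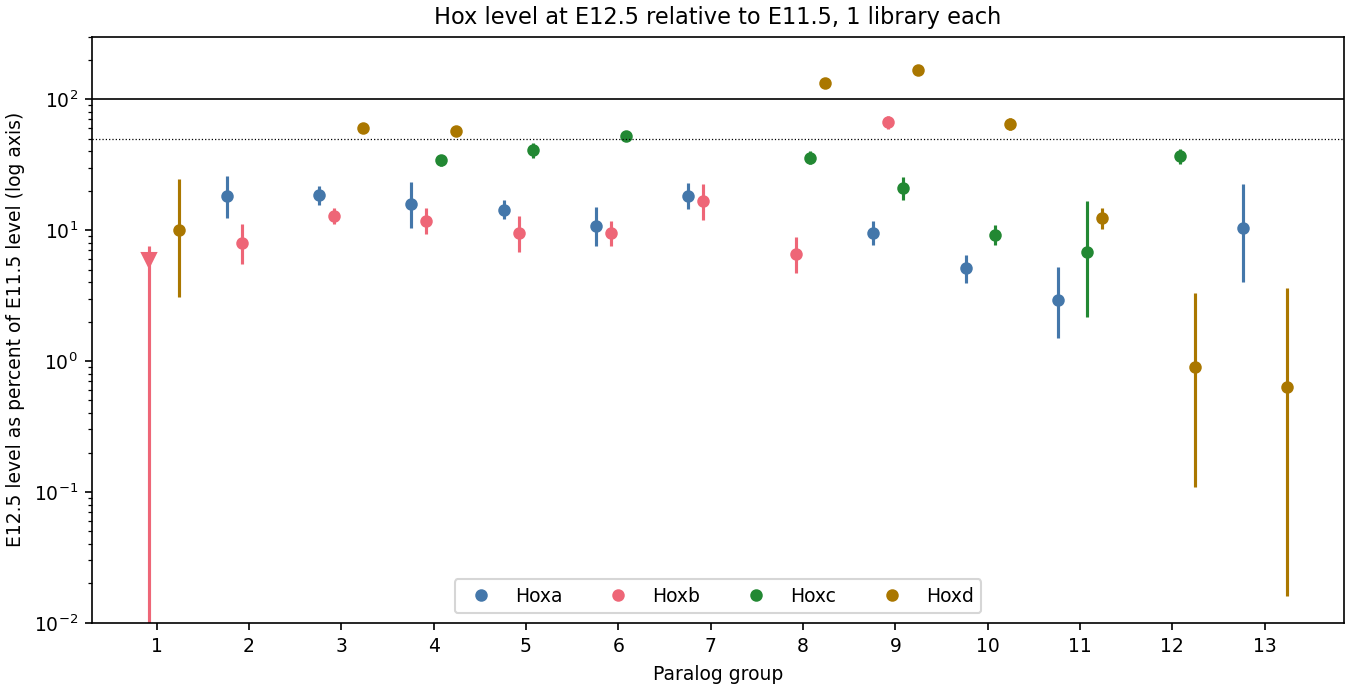
Level at E12.5 as percent of the level at E11.5 (log axis) against paralog group for the measured Hox genes described here, 1 library each; points are ratios of TMM-scaled counts, bars their 95% counting intervals, the triangle an upper bound for Hoxb1, the solid line 100% and the dotted line 50%. Hoxd9 at 166% and Hoxd8 at 133% lie above the solid line, and Hoxd12 and Hoxd13 lie below 1%.

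Paralogs of the same number thus differed by cluster. In the 9 groups with a measured Hoxd gene, that gene kept the highest percentage in 6, namely groups 3, 4, 8, 9, 10 and 11. In groups 3, 4, 8, 9 and 10 the counting interval of the Hoxd gene was apart from that of the next paralog, while in group 11 Hoxd11 at 12.3% overlapped Hoxc11 at 6.83%. In groups 5, 6 and 12 the Hoxc gene kept most. Group 9 was the most spread of the 4-gene groups, with 166% for Hoxd9, 66.4% for Hoxb9, 20.9% for Hoxc9 and 9.54% for Hoxa9, and all 4 intervals were apart. Group 4 also had its Hoxd gene first, but the other clusters followed in a different order. It had 57.3% for Hoxd4, 34.1% for Hoxc4, 15.8% for Hoxa4 and 11.8% for Hoxb4, of which the last 2 overlapped. A Hoxb gene came first in 0 of the 13 groups.

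By position along the axis the counts of called genes were closer to each other. Of the anterior groups 1 to 3, 7 of 8 measured genes were called lower, with a median log2 ratio of -2.71. Of groups 4 to 8 it was 12 of 15, with a median of -2.59, and of groups 9 to 13 it was 11 of 14, with a median of -3.33. Each position class held genes far from its median, since Hoxd3, Hoxd8 and Hoxd9 lay in different classes.

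From E12.5 to E13.5 the Hox genes changed little. Of 32 measured genes 2 were called lower and 0 higher, beside 2.14% lower and 3.8% higher of all measured genes, and the median log2 ratio was -0.18. Both called genes were in the Hoxa cluster and had few counts. Hoxa2 had 36 and 21 counts, with a ratio of -1.12, and Hoxa11 had 12 and 7 counts with the same ratio. Neither interval lay wholly beyond 2-fold. The summed level kept 101% in the Hoxc cluster, 91.2% in Hoxb, 87.3% in Hoxd and 71.8% in Hoxa.

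Which genes stayed expressed in the gonad was read from the deposited TPM, at 1 TPM or more in each of the E12.5, E13.5 and E14.5 libraries. This held for 19 of 39 Hox genes, or 48.7%, beside 32.1% of all listed features. That background includes many features with few counts, as 19500 of the 40999 were measured at E12.5 against E11.5. Of the Hox genes, 37 had at least 1 TPM at E11.5, and the share among all features expressed at E11.5 was not computed. The 19 genes were Hoxc4, Hoxc5, Hoxc6, Hoxc8, Hoxc9, Hoxc10 and Hoxc12, Hoxd3, Hoxd4, Hoxd8, Hoxd9, Hoxd10 and Hoxd11, Hoxa3, Hoxa4, Hoxa5 and Hoxa6, and Hoxb6 and Hoxb9. By cluster these were 7 of 9 Hoxc, 6 of 9 Hoxd, 4 of 11 Hoxa and 2 of 10 Hoxb genes. By number, all 3 genes of group 6 qualified, and 0 genes of groups 1, 2, 7 and 13. Ribosomal RNA takes up part of the TPM total of the E14.5 library. In that library, just inside the threshold were Hoxa6 at 1.02 TPM, Hoxd11 at 1.07 and Hoxc9 at 1.08, and just outside were Hoxb3 at 0.771, Hoxb4 at 0.617 and Hoxa9 at 0.584. With at least 2 TPM 12 genes remained, and with at least 10 counts in each library 30 genes did. With at least 1 TMM-scaled RPKM in each library 18 of the 19 remained, without Hoxa4.

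**Figure D4:**
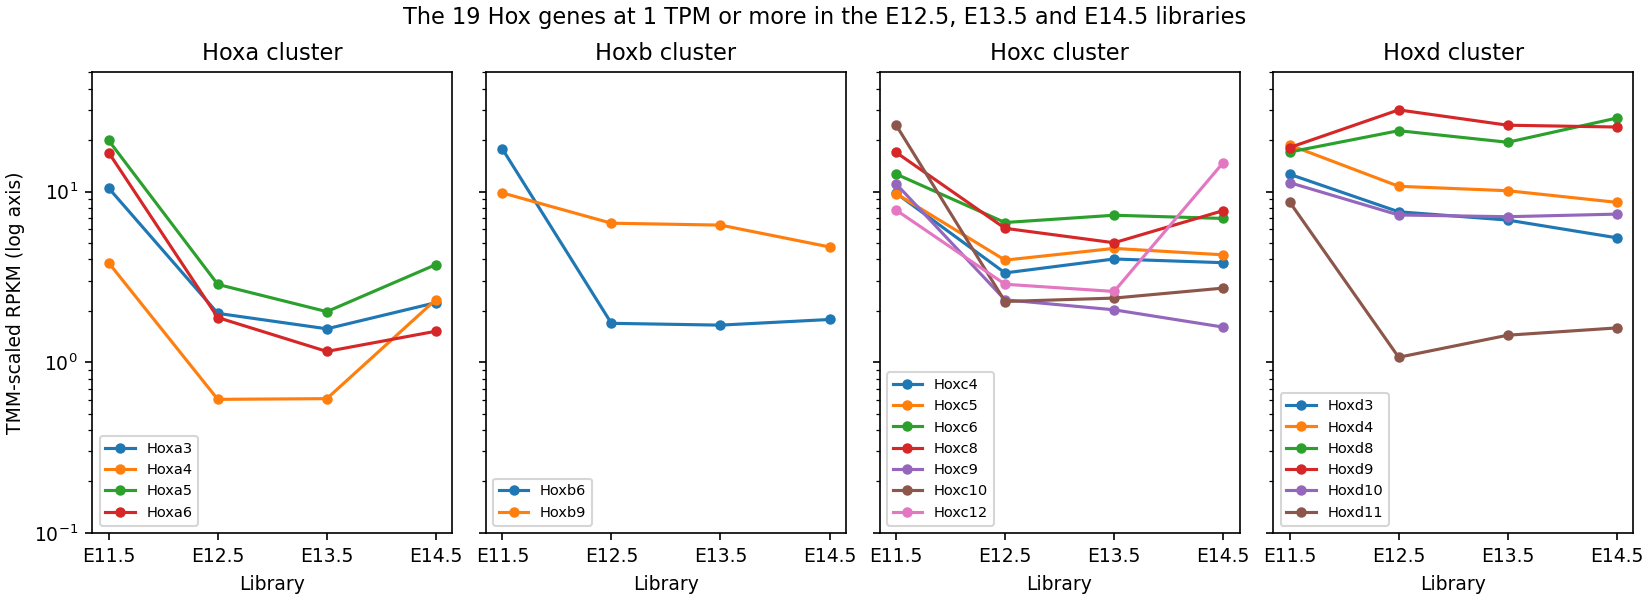
TMM-scaled RPKM (log axis) of the 19 Hox genes at 1 TPM or more in the E12.5, E13.5 and E14.5 libraries, with 1 panel per cluster, 1 line per gene and 1 library per point. Hoxd8 and Hoxd9 stay between 17.0 and 30.1, most others change little after E12.5, and Hoxc12 goes from 2.60 at E13.5 to 14.8 at E14.5.

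The order of levels in the gonad was led by Hoxd genes. At E12.5 Hoxd9 at 30.1 (28.8 to 31.4), Hoxd8 at 22.7 (21.7 to 23.8) and Hoxd4 at 10.7 were each apart from the next gene. Behind them Hoxd3, Hoxd10, Hoxc6, Hoxb9 and Hoxc8 lay between 7.61 and 6.09, and each overlapped its neighbour in the order. The first 3 genes were the same at E13.5. At E14.5 Hoxd8 at 26.9 came before Hoxd9 at 23.9, then Hoxc12 at 14.8 and Hoxd4 at 8.64.

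The share of the summed Hox TPM, which does not depend on scaling between libraries, sets the clusters side by side. The Hoxd cluster held 26.4%, 60.9%, 59.5% and 52.6% in the order of age. Hoxd8 and Hoxd9 alone made up 10.1%, 40.4%, 37.6% and 36.1%. The Hoxa share was 26.1%, 8.21%, 6.59% and 9.71%, and the Hoxb share 20.2%, 9.68%, 9.88% and 7.96%. The Hoxc share was 27.3%, 21.2%, 24.0% and 29.7%. Counted as shares of reads, without dividing by length, the Hoxd share was 24.8%, 50.7%, 47.9% and 43.2%, so that the gain of the Hoxd cluster held on both scales. Paralog group 9 held 14.3% at E11.5 and 30.6% at E12.5, and group 10 went from 14.3% to 7.86%.

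**Figure D5:**
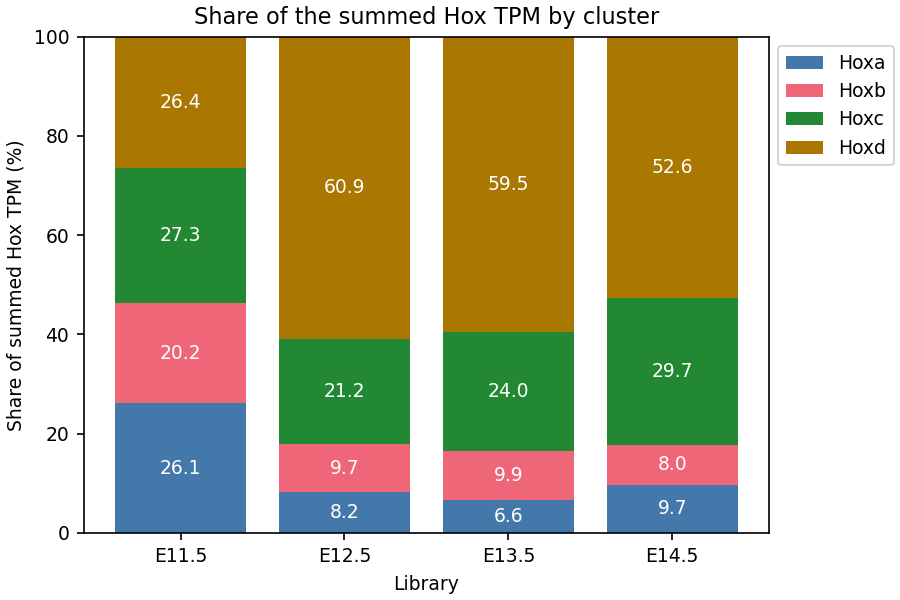
Share of the summed deposited TPM of the 39 Hox genes held by each cluster in each library, in percent, as stacked bars that add up to 100%. The Hoxd share is 26.4% at E11.5 and between 52.6% and 60.9% in the later libraries.

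Between E13.5 and E14.5, 0 of 31 measured Hox genes were called lower and 3 higher, beside 3.11% lower and 6.43% higher of all measured genes. The median log2 ratio of the Hox genes was 0.26. Hoxc12, a posterior gene, had 914, 307, 352 and 952 counts and levels of 7.80, 2.86, 2.60 and 14.8, so that E14.5 lay above the genital ridge too on this scale, but below it in deposited TPM, at 9.90 against 12.0. Its log2 ratio from E13.5 was 2.51 (2.33 to 2.69). Hoxa13, which patterns the limb tip and the hindgut, had 74, 7, 14 and 32 counts and a ratio of 2.26 (1.32 to 3.28). Hoxa4 had 200, 29, 37 and 67 counts and a ratio of 1.93 (1.33 to 2.55). Against E12.5 these were again the 3 Hox genes called higher of 32 measured, with 0 lower, while 9% of all measured genes were called higher and 4.15% lower.

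These E14.5 values depend on how the ribosomal RNA of that library is handled. Scaled to total counts, which moves the median of all genes to -1.08, the E14.5 over E13.5 ratio was 1.45 for Hoxc12, 1.20 for Hoxa13 and 0.87 for Hoxa4. As ratios of the deposited TPM, with a median of all genes of -1.63, they were 0.89, 0.65 and 0.31. The median of the Hox genes went from 0.26 to -0.80 with total counts and -1.35 with TPM. Hoxc12 was counted over 3423 exon bases, of which 2392 lie outside its GENCODE M21 model, whose last base is 102938609 against 102940855 in the files, and where its reads lie was not tested. Of the other lists, 3 of 13 measured mesonephric genes were called higher and 0 lower, with 5 ratios below 0, 2 of 5 gut genes higher and 1 lower, and 1 of 22 Polycomb and trithorax genes higher and 0 lower, with 19 below 0. Cbx8, a Polycomb component, had 467 counts at E13.5 and 1105 at E14.5, a log2 ratio of 2.31. Foxa1, a factor of endodermal epithelium, went from 48 to 908 counts, Cdh16 of renal epithelium had a ratio of 2.28, and Osr1 had 1.01. These list calls and ratios are on the TMM scale and depend on the scaling too. Cbx8 had 1.25 with total counts and 0.70 with TPM ratios, and Foxa1 had 4.25 and 3.69. Osr1 at 1.01 lies at the edge of the 2-fold call, and the mesonephric ratios at this step ran from -0.78 to 3.39. From E12.5 to E13.5, 3 of 14 measured mesonephric genes had been called lower and 0 higher, beside 2.14% and 3.8% of all measured genes. At E14.5 against E12.5, 1 of 14 was called higher and 0 lower. The part of the genes of these lists in the Hox values was not tested.

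The cofactors of Hox proteins and the chromatin regulators of Hox genes differed from each other. Of 9 TALE cofactors 5 were called lower at E12.5 and 0 higher, with a median log2 ratio of -1.09, beside 9.72% lower and 9.03% higher of all measured genes. Meis2 had 9103, 1813, 2134 and 1097 counts and a ratio of -2.20, and Meis3 had -1.67, Meis1 -1.47 and Pbx3 -1.09. Pknox2 was the 1 member with a ratio above 0, at 0.82, and Pknox1 had -0.05. After E12.5 0 of the 9 were called in either direction. Of 22 Polycomb and trithorax regulators 0 were called lower at E12.5 and 1 higher, beside the same shares of all measured genes. The list is small, and whether it differs from those shares was not tested. The gene called higher was Cbx7 at 1.14 with 93, 188, 206 and 128 counts. Their median was 0.03, and Ezh2, the methyltransferase of Polycomb complex PRC2, had -0.43 and the trithorax methyltransferase Kmt2a 0.01.

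Many features lying among the Hox genes were lower at E12.5 too. Of 36 such features 23 had at least 10 counts in a library, and 15 of the 22 measured at E12.5 were called lower and 1 higher, beside 9.72% lower and 9.03% higher of all measured genes. Among them 4 miRNAs were listed both as hairpin and as mature RNA, and without the hairpins 11 of 18 were lower and 1 higher. Without miRNAs in either form 7 of 14 were lower and 1 higher. Hoxa11os had 250, 3, 2 and 6 counts and a log2 ratio of -6.25 (-8.54 to -4.69), beside -5.09 for Hoxa11. Hoxb5os had 123, 7, 3 and 3 counts and a ratio of -4.01. Hotair, a long RNA between Hoxc11 and Hoxc12 on the opposite strand, had 24 counts at E11.5 and 0 later. Near Hoxb9, Gm53 had 175, 270, 361 and 151 counts with a ratio of 0.75, and Gm11539 had 155, 166, 185 and 88 counts with a ratio of 0.23. Both lie between Hoxb13 and Hoxb9. LOC102631926, the 1 feature called higher, had 5, 22, 14 and 6 counts.

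The clusters also carry microRNAs, which pair through bases 2 to 8, the seed, with sites in messenger RNAs, and the library kit captured short RNAs in the same preparation. Their mature sequences from RefSeq (GRCm38.p6, mm10) are shown with the seed in capitals, because they fall into 3 seed families.
miR-10a-5p, chr11:96317186-96317208, plus strand, in the Hoxb cluster within the span of Hoxb3: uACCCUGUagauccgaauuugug
miR-10b-5p, chr2:74726074-74726096, plus strand, in the Hoxd cluster within the spans of Hoxd3 and Hoxd4: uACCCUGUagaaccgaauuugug
miR-196a-5p, chr11:96265187-96265208 and chr15:102973365-102973386, plus strand, in the Hoxb and Hoxc clusters: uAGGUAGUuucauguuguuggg
miR-196b-5p, chr6:52230129-52230150, minus strand, in the Hoxa cluster: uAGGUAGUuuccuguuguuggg
miR-615-3p, chr15:103014969-103014990, plus strand, in the Hoxc cluster: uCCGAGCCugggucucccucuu
Counted from 1 at the 5′ end, miR-10b-5p differs from miR-10a-5p by U12A, and miR-196b-5p from miR-196a-5p by A12C, both outside the seed. miR-196a-5p had 86, 11, 7 and 5 counts and a log2 ratio of -2.84 (-3.89 to -1.93) at E12.5. It is encoded at 2 loci with identical mature sequence, so its counts cannot be divided between them. miR-10a-5p had 27, 4, 3 and 9 counts and a ratio of -2.63. miR-10b-5p had 34, 11, 13 and 36 counts, with a ratio of -1.50 at E12.5 and of 2.44 (1.44 to 3.57) at E14.5 over E12.5. The size of this E14.5 ratio depends on the TMM scaling. In that comparison total counts moved the median of all genes to -1.04 and TPM ratios to -1.49. miR-615-3p had 24, 6, 6 and 7 counts, and miR-196b-5p 8, 0, 2 and 0. Of the 5, all but miR-10b-5p had their most counts at E11.5.

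Some Hox messengers hold letters complementary to these seeds. The miR-196 match ACTACCT was in the 3′ UTR of 9 of 39 Hox genes, among them Hoxa4, Hoxa5, Hoxa7, Hoxa9, Hoxb1, Hoxb6, Hoxb7 and Hoxc8, against 6.29% of 21877 genes in GENCODE M21 (mm10). The miR-10 match ACAGGGT was in 4, among them Hoxa3, Hoxb3 and Hoxd1, against 12.6%, and the miR-615 match GGCTCGG was in Hoxb4 alone, against 2.36%. The sites below are given with the match in capitals, as DNA in the sense of the transcript, since Hoxa7 and Hoxc8 had the most miR-196 matches and Hoxd1 was the 1 Hoxd gene with any.
Hoxa7, chr6:52215210-52215231, minus strand: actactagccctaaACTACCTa
Hoxa7, chr6:52215400-52215421, minus strand: ggcacagccaaaatACTACCTa
Hoxc8, chr15:102992976-102992997, plus strand: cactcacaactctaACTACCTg
Hoxc8, chr15:102993733-102993754, plus strand: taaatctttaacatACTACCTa
Hoxd1, chr2:74764930-74764952, plus strand: tagcggaacaaatccACAGGGTa
The genes named with a miR-196 match kept from 9.50% (Hoxb6) to 35.9% (Hoxc8) of their E11.5 level at E12.5, apart from Hoxb1, which was at 0 counts. Hoxa7 kept 18.3%. A match describes letters and is not evidence of binding.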

How the data were processed

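Stranded total RNA libraries with rRNA depletion and UMIs were made from pooled C57BL/6J gonads, 1 per time point. The authors aligned reads to mm10 with STAR, removed duplicates with UMI-tools and counted reads per gene with featureCounts in the SeqSense toolkit; versions are not given in the sources used here, nor is the strand setting of the counting. The deposited counts, RPKM and TPM were the authors' values per feature. The 39 members were matched by symbol. The values of some single genes are not reported here, and counts and sums include them. The members and gene lists were chosen with earlier results of these data known. Members of lists were named where called in a comparison or listed first as defining markers.

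TMM factors came from edgeR 4.0.16 on all 4 libraries (R 4.3.3), and ratios were computed in Python 3.11.15 with scipy 1.17.1. A minimum of 10 counts in either library, a 2-fold threshold and a floor of 3 counts were used. No quasi-likelihood test could be fitted with 1 library per time point. An edgeR exact test at a preset coefficient of variation of 0.1, 0.2 or 0.4, DESeq2 1.42.0 size factors, total counts, TPM ratios and other minimum counts were tried as alternatives. The steps were tested on simulated data. Library totals were 31266481, 25593453, 31752562 and 31526303 counts from E11.5 to E14.5. PCR duplicates were removed by UMI, and the intervals cover counting error only.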

Additional observations from a re-analysis of the deposited data

How the results depend on the processing

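The 30 Hox genes called lower at E12.5 became 13 under the edgeR exact test at a preset coefficient of variation of 0.4. The count called higher there became 1 with ratios of deposited TPM and 1 without a minimum count, and the TPM median was -2.52. From E12.5 to E13.5, 0 genes were called lower with TPM ratios, a minimum of 50 counts, the whole interval beyond 2-fold, a 4-fold threshold or the exact test at any preset value, and 2 were called higher without a minimum count. From E13.5 to E14.5, 11 were called lower with total counts (median -0.80) and 22 with TPM ratios, whose median was -1.35, and 0 were called higher with TPM ratios or the exact test at 0.4. From E12.5 to E14.5, 14 were called lower with total counts (median -0.97) and 28 with TPM ratios (median -1.42). The count called higher was 1 with TPM ratios, 5 without a minimum count and 0 with the exact test at 0.4. Total counts moved the median of all genes to -1.08 and -1.04 in these 2 comparisons, and TPM ratios to -1.63 and -1.49. Of all measured genes from E13.5 to E14.5, 11825 of 19351 were called lower with total counts and 17259 with TPM ratios. From E12.5 to E14.5 it was 10465 and 15575 of 18943. The E14.5 calls therefore rest on the scaling. Genes kept from E12.5 to E14.5 numbered 12 at 2 TPM and 30 at 10 counts. As shares of Hox counts from E11.5 to E14.5, Hoxa held 20.4%, 6.18%, 4.69% and 6.58%, Hoxc 34.4%, 33.6%, 38.2% and 42.4%, Hoxd 24.8%, 50.7%, 47.9% and 43.2%, and Hoxb 9.24% at E13.5. The other 92 alternative values were counts within 1.5 times the reported one, or medians and shares within its counting interval. No paired analysis was possible because each time point has 1 library, and for the same reason no library could be left out.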

Other observations

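The Cdx, ParaHox and Evx genes are homeobox relatives that lie outside or beside the Hox clusters. Listed together with Gbx1, Gbx2 and Mnx1, they stayed low. Of 11 listed genes 7 were measured at E12.5 against E11.5, with 1 called lower and 0 higher, beside 9.72% lower and 9.03% higher of all measured genes. Cdx2, an intestinal and posterior axis regulator, had 26, 27, 164 and 23 counts from E11.5 to E14.5, so that it was up-regulated at E13.5 by a log2 ratio of 2.26 and down-regulated at E14.5 with -1.76. Evx2, which lies next to Hoxd13, had 31, 11, 8 and 40 counts, with log2 ratios of -1.37 at E12.5 and 3.39 (2.28 to 4.70) at E14.5 over E13.5. The E14.5 over E13.5 ratio of Evx2 was 2.33 with total counts and 1.77 with TPM. Evx1, next to the Hoxa cluster, had 33, 51, 32 and 9 counts. Pdx1 had 0 counts in all 4 libraries, which allows up to 3 counts in each.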
